A study of Mus musculus with 6 samples.

Results

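The IRAK kinases, the TRAF proteins and Tab2 relay signals from toll-like receptors, interleukin 1 receptors and the TNF receptor family to NF-kB and the MAP kinases. Of 10 genes of this relay (Irak1 to Irak4, Traf1 to Traf3, Traf5, Traf6 and Tab2), 8 had a row that the platform annotation maps to their symbol, among 25206 gene-level features. Irak4 and Traf3 carried no symbol there and were not analysed here, although features numbered by their gene identifiers exist among the deposited values. The cells were peritoneal macrophages, elicited in mice by thioglycollate broth, on the C57BL/6J background. The 2 groups were macrophages of Tet2-/- mice (3 arrays, called Tet2-deficient below) and macrophages of wild-type littermates (3 arrays), 1 array per biological replicate. Every culture of both groups had received 10 ng/ml lipopolysaccharide (LPS) together with 2 ng/ml interferon gamma for 10 h, so all levels describe stimulated cells and none shows induction by the stimulus. The sources used here state neither the age of the mice nor which part of Tet2 is deleted.

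When LPS binds toll-like receptor 4, the adaptor MyD88 draws IRAK kinases into a complex at the membrane. IRAK1 and IRAK2 then recruit TRAF6, a ubiquitin ligase that builds chains on itself and on its neighbours. TAB2 binds these chains and brings in TAK1, the kinase that switches on the IkB kinases and the JNK and p38 pathways. IRAK3, also called IRAK-M, is a kinase-like brake found mainly in macrophages and monocytes. TRAF2, TRAF5 and TRAF1 serve the TNF receptor family, and TRAF1 is the one of them that lacks the RING domain of a ubiquitin ligase.

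Levels are log2 expression values, and changes are the Tet2-deficient mean minus the wild-type mean with the standard error of a limma fit over all features (n = 3 arrays per group). Adjusted p-values come from that fit, by the Benjamini-Hochberg method over the 25206 features, and a gene is said to have risen or fallen where that value was below 0.05. Array medians ran from 3.47 to 3.60 in Tet2-deficient and from 3.54 to 3.66 in wild-type macrophages. In all, 163 features rose and 77 fell. The share of rises among these calls was 67.9% as deposited, 78.8% with each array centred on its median and 59.6% after cyclic loess between arrays. The Tet2 feature itself read 5.55, 5.25 and 5.75 in Tet2-deficient and 5.40, 5.07 and 5.10 in wild-type arrays (change 0.32 ± 0.16, limma adjusted p = 0.365, and 0.21 without Tet2-deficient replicate 3). Where its probes lie is likewise unstated, so this value checks nothing and the genotype rests on the labels.

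Traf1, Tab2 and Irak3 rose in Tet2-deficient macrophages, by 1.83-fold, 1.69-fold and 1.64-fold. The other 5 genes (Irak1, Irak2, Traf2, Traf5 and Traf6) did not pass the threshold, and 0 of the 8 fell. Over all features 0.647% rose and 0.305% fell, and over the 12603 features brighter than the median feature, as all 8 genes were, 1.23% rose. At an unadjusted limma p under 0.05 there were 6 higher genes and 0 lower ones, where 7.63% of all features were higher and 8.37% lower. With dim features left out, 6 of the 8 genes and 3204 of the 12603 features had such a p in either direction. As deposited, the change was positive for 8 of the 8 genes, for 42.1% of all features and for 49.1% of the brighter ones. Beyond the test, 7 of the 8 genes had every Tet2-deficient array above every wild-type array, all but Traf2. Such a separation was found for 9.74% of all features and for 16.6% of the brighter ones. The median change of the 8 genes was 0.46, against -0.04 for all features. These are bulk cultures, so more RNA per cell and more cells of a type that expresses a gene cannot be told apart.

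**Figure D1:**
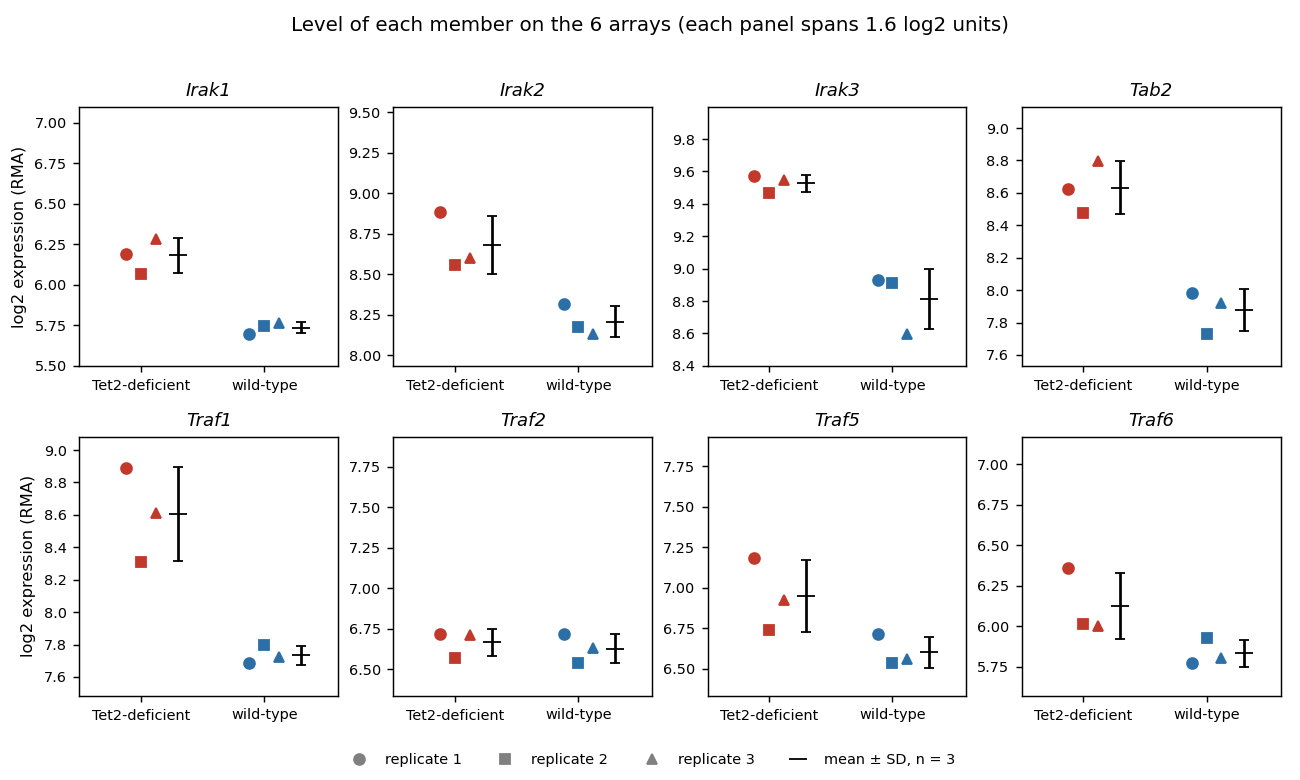
Level of 8 genes on each of the 6 arrays (vertical axes: log2 expression, RMA values, every panel spanning the same number of log2 units; Tet2-deficient in red on the left, wild-type in blue on the right). Marker shapes give the replicate number and bars the mean ± SD of 3 arrays; the groups overlap for Traf2 alone.

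The stretches before the transcription starts of the 3 genes that rose are shown beside that of Traf2, the gene with the smallest change, because TET2 acts on methylated cytosines of CpG sites. Each runs for 250 bases up to the base before a RefSeq start (build GRCm38.p6), 5′ to 3′ on the gene's own strand, with CpG sites in capitals. Irak3 lies on the minus strand (chr10:120201598-120201847), as do Tab2 (chr10:7956124-7956373), Traf1 (chr2:34961773-34962022) and Traf2 (chr2:25546941-25547190).
Irak3: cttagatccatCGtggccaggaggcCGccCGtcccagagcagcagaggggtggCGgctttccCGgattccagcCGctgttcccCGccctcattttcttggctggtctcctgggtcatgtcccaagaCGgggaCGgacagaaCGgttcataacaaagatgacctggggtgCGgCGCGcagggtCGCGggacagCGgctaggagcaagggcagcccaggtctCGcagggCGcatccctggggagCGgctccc
Tab2: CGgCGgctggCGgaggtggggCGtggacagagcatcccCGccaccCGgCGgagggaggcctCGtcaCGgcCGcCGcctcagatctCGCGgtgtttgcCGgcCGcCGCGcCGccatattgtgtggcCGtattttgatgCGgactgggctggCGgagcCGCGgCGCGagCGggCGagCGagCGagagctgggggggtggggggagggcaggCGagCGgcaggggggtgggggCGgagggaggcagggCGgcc
Traf1: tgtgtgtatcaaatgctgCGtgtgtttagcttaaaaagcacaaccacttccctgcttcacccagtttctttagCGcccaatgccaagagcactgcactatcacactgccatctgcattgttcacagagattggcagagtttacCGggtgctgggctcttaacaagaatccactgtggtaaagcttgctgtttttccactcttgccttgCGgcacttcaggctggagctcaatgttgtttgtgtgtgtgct
Traf2: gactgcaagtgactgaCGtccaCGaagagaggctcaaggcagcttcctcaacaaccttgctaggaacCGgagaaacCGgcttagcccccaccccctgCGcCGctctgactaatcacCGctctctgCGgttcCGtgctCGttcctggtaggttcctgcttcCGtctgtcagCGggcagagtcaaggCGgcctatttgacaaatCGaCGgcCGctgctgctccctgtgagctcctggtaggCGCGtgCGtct

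The 3 genes that rose differed widely in CpG content. Tab2 had 33 CpG sites in these bases, more than 96.0% of 32851 RefSeq windows, whereas Traf1 had 4, below the median of 6 over all windows. Irak3 and Traf2 each had 19, so a gene that rose and the gene with the smallest change had the same count. RefSeq gives a second start for Irak3 with 6 CpG sites before it and one for Tab2 with 2, and which starts these macrophages used is not shown by the arrays. Among the others, Irak1 had 13 or 14 sites, depending on the start, Irak2 and Traf5 had 12 each and Traf6 had 13. All windows from 250 bases before to 50 after a start were also searched, on both strands, for the kappa-B consensus, for the interferon-stimulated response element and for TGANTCA (an AP-1 site). None of the windows of the 8 genes held any of the 3 motifs, which were found in 4.51%, 3.44% and 7.81% of all windows, in that order. This says only that these letters are not in these windows. DNA methylation was not analysed here.

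Among the IRAK genes, Irak3, the brake, was the one that rose. Its levels were 9.57, 9.47 and 9.55 in Tet2-deficient macrophages, against 8.93, 8.91 and 8.60 in wild-type macrophages. The Tet2-deficient arrays lay close together (SD 0.05) and the wild-type arrays less so (SD 0.19), with replicate 3 as the low one. The change was 0.71 ± 0.13 (limma adjusted p = 0.0423, 95% interval 0.42 to 1.01), and the lowest Tet2-deficient array was 0.54 above the highest wild-type array.

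Irak2, the kinase that sustains late signalling from toll-like receptors in mouse macrophages, read 8.89, 8.56 and 8.60 in Tet2-deficient macrophages and 8.32, 8.18 and 8.13 in wild-type macrophages. Replicate 1 was the highest array of both groups, and the groups stayed apart by 0.24. The change of 0.47 ± 0.13 did not pass the threshold (limma adjusted p = 0.123, 95% interval 0.18 to 0.77). Irak1, the kinase first found in the interleukin 1 receptor complex, read 6.19, 6.07 and 6.28 in Tet2-deficient macrophages, against 5.70, 5.75 and 5.76 in wild-type macrophages. All wild-type values lay in a narrow band, 0.30 below the lowest Tet2-deficient array. Its change of 0.44 ± 0.12 did not pass either (limma adjusted p = 0.106, interval 0.18 to 0.70). The interval of Irak3 overlaps those of Irak1 and Irak2, and the difference between the brake and the kinases was not tested.

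Tab2 had 8.62, 8.47 and 8.80 in Tet2-deficient macrophages and 7.98, 7.73 and 7.92 in wild-type macrophages. The 2 groups had similar spreads (SD 0.16 in Tet2-deficient, 0.13 in wild-type arrays) and a gap of 0.49 between them, with replicate 2 the lowest in both. Its change was 0.75 ± 0.13 (limma adjusted p = 0.0377, 95% interval 0.45 to 1.05). Traf6, the ligase whose chains TAB2 binds, read 6.36, 6.01 and 6.00 in Tet2-deficient macrophages, against 5.77, 5.92 and 5.80 in wild-type macrophages. One Tet2-deficient array, replicate 1, stood above the rest, while the other Tet2-deficient arrays were just above the wild-type ones, the gap being 0.07. The change of 0.29 ± 0.14 did not pass (limma adjusted p = 0.340), and its interval ran from -0.02 to 0.60. Without Tet2-deficient replicate 1 the change was 0.17.

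Among the TRAFs of the TNF receptor family, Traf1 rose and Traf2 had the smallest change. Traf1 read 8.89, 8.31 and 8.61 in Tet2-deficient macrophages, against 7.68, 7.80 and 7.72 in wild-type macrophages. The Tet2-deficient arrays were spread 4.97 times as widely as the wild-type ones (SD 0.29 in Tet2-deficient, 0.06 in wild-type arrays), yet the lowest of them was 0.51 above every wild-type array. The change was 0.87 ± 0.16 (limma adjusted p = 0.0389, 95% interval 0.52 to 1.22), the largest of the 8 genes.

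Traf2, the ligase that TRAF1 pairs with at TNF receptors, read 6.72, 6.57 and 6.71 in Tet2-deficient macrophages and 6.72, 6.54 and 6.63 in wild-type macrophages. The groups overlapped throughout, and replicate 2 was the lowest in both. Its change was 0.04 ± 0.12 (limma adjusted p = 0.909), with an interval of -0.22 to 0.30 that lies wholly below that of Traf1. The sign of this small change turned under cyclic loess between arrays and without wild-type replicate 2. Traf5, which is close to Traf2 in structure and acts with it at receptors such as CD40, read 7.18, 6.74 and 6.93 in Tet2-deficient macrophages and 6.71, 6.53 and 6.56 in wild-type macrophages. The groups were separated by only 0.03, between Tet2-deficient replicate 2 and wild-type replicate 1. Its change was 0.35 ± 0.14 (limma adjusted p = 0.267, 95% interval 0.03 to 0.67), and 0.23 without Tet2-deficient replicate 1.

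**Figure D2:**
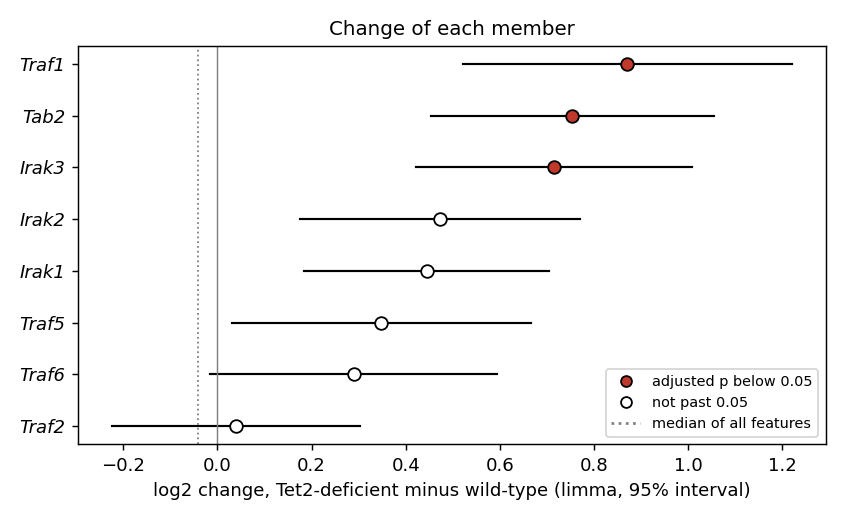
Log2 change of each of the 8 genes (horizontal axis: Tet2-deficient minus wild-type; bars: 95% intervals of the limma fit; filled points: adjusted p below 0.05). The 3 filled points, at 0.71 to 0.87, are Irak3, Tab2 and Traf1, while the interval of Traf2 covers 0.

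The 3 calls lay near the threshold. Tab2, Traf1 and Irak3 stood at ranks 183, 190 and 201 by p, among 240 features past it. With 1 array left out, Tab2 and Irak3 missed the threshold whichever array it was (limma adjusted p 0.0571 to 0.151 and 0.0628 to 0.157), and Traf1 kept it only without Tet2-deficient replicate 2 (0.0401 to 0.155 over the 6 fits). Their changes in those fits stayed between 0.67 and 0.83 for Tab2, 0.73 and 1.02 for Traf1, and 0.61 and 0.77 for Irak3. Those fits have fewer arrays and called 11 to 155 features in all. Irak1 and Irak2 each passed under 1 of 12 alternatives, Irak1 when dim features were left out (adjusted p = 0.0459) and Irak2 with a trended and robust prior (0.0452).

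**Figure D3:**
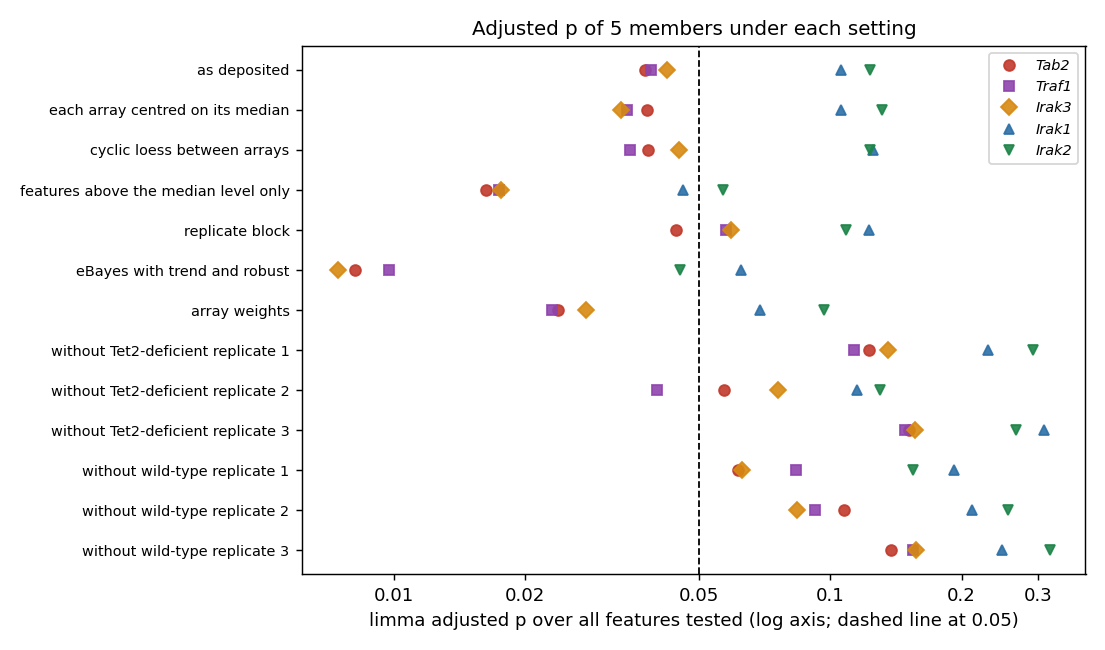
Limma adjusted p (horizontal log axis, dashed line at 0.05) of Tab2, Traf1, Irak3, Irak1 and Irak2 under each processing setting (rows). The first 3 genes lie left of the line in most settings with 6 arrays and right of it in nearly all fits with 1 array left out; with the replicate number as a block, Tab2 alone is left of it.

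Within a group the 8 genes tended to share their high and low arrays. Tet2-deficient replicate 1 was the highest of its group for 6 of the 8 genes and replicate 2 the lowest for 7 of them. Over all features replicate 1 was the highest for 33% and replicate 2 the lowest for 32.5%. The share among brighter features was not computed. The order was not particular to the relay genes. Among pathway genes described below, Tet2-deficient replicate 2 was also the lowest of its group for Tirap, Peli1, Zbp1 and Map3k7. That array was not the lowest for Tlr2, Cd14 or Map3k5. Irak1 and Tab2 had replicate 3 on top, and Traf6 had it at the bottom. The wild-type arrays showed less of such an order: replicate 1 was the highest for 5 genes and the lowest for the other 3. The spread among arrays was wider in Tet2-deficient than in wild-type macrophages for 6 of the 8 genes, against 51.2% of all features, the exceptions being Irak3 and Traf2.

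The pathway around these genes was read from 9 lists with 114 measured genes of 117. Of these, 4 rose (Cd14, Tlr2, Lbp and Map3k5), 0 fell and 110 did not pass. Over all features 0.647% rose and 0.305% fell, and 1.23% of the brighter ones rose. At an unadjusted limma p under 0.05 there were 16 higher genes and 7 lower ones, where 7.63% of all features were higher and 8.37% lower. With dim features left out, 23 of 96 pathway genes had such a p in either direction, as did 3204 of the 12603 features, a similar share. The median change of the 114 genes was 0.05, close to the -0.04 of all features and below the 0.46 of the 8 genes above.

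At the receptors, 3 of 18 toll-like receptor and co-receptor genes rose, 0 fell and 15 did not pass. Under an unadjusted limma p of 0.05 there were 3 higher and 3 lower genes, Tlr9 among the lower ones. Tlr2, the receptor for bacterial lipoproteins, had 8.53, 8.64 and 8.54 in Tet2-deficient macrophages and 7.78, 7.59 and 7.46 in wild-type macrophages (change 0.96 ± 0.13, limma adjusted p = 0.0152). The LPS co-receptor Cd14 (0.97 ± 0.13, adjusted p = 0.0152) and the LPS-binding protein Lbp (0.94 ± 0.15, adjusted p = 0.0266) were the others. The call of Lbp held only where Tet2-deficient replicate 2 was the array left out (adjusted p over the 6 fits 0.0333 to 0.115). Cd14 lost its call without Tet2-deficient replicate 1 or 3 or wild-type replicate 3 (0.0287 to 0.0783), and Tlr2 without the same 3 arrays or wild-type replicate 2 (0.0159 to 0.0740). Tlr9, the endosomal receptor for CpG DNA, had a change of -1.06 ± 0.26 that did not pass (adjusted p = 0.0939), though it did under 2 of 12 alternatives (0.0459 without dim features). For Tlr4, the LPS receptor itself, the change was 0.21, with an interval of -0.10 to 0.51 and overlapping groups (limma adjusted p = 0.522). The median over this list was 0.10.

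Neither the interleukin 1 receptor family nor the adaptors had a gene past the threshold. Among 7 receptor genes of that family, 0 rose and 0 fell by limma, with 1 under an unadjusted p of 0.05, and the median change was 0.05. That gene, Il1rl2, an activating receptor of the family, had 5.09, 4.54 and 4.67 in Tet2-deficient macrophages, against 4.11, 3.84 and 4.03 in wild-type macrophages. Its groups did not overlap, and its change of 0.77 ± 0.16 had a limma adjusted p = 0.0597, which was below 0.05 under 4 of 12 alternatives. Among 6 adaptors with a TIR domain or tied to one, 0 rose and 0 fell, with 2 under an unadjusted p of 0.05. These were Tirap, which bridges TLR2 and TLR4 to MyD88 (0.59 ± 0.18, limma adjusted p = 0.150), and Ticam2, which bridges TLR4 to TRIF (0.39 ± 0.14, adjusted p = 0.203). Myd88, the adaptor that holds the IRAK kinases, had a change of -0.16 ± 0.12, which ran from -0.25 to -0.09 over 12 alternatives.

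In the list around TAK1 and the IkB kinases, 1 of 10 genes rose, 0 fell and 9 did not pass. The riser was Map3k5, also called ASK1, a stress-activated kinase that binds TRAF2 and TRAF6. It had 6.21, 6.27 and 5.96 in Tet2-deficient macrophages, against 5.45, 5.18 and 4.80 in wild-type macrophages. Every Tet2-deficient value was above every wild-type value, and the change was 1.00 ± 0.17 (limma adjusted p = 0.0361). Of the 6 fits with 1 array left out, the call held only in that without wild-type replicate 1 (adjusted p 0.0287 to 0.133).

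The partners of TAB2 had smaller values that did not pass. Map3k7, which encodes TAK1, had 5.85, 5.64 and 5.81 in Tet2-deficient macrophages and 5.50, 5.12 and 5.30 in wild-type macrophages (change 0.46 ± 0.14, limma adjusted p = 0.146). Tab3, the close relative of Tab2, had 5.49, 5.32 and 5.28 in Tet2-deficient macrophages and 4.97, 4.99 and 4.93 in wild-type macrophages (change 0.40 ± 0.12, limma adjusted p = 0.132). For both genes the groups did not overlap. Map3k3, another kinase upstream of the IkB kinases, had a change of 0.41 ± 0.13 (adjusted p = 0.175). The median change of this list, 0.26, was the highest of the 9 lists.

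The other 5 lists had 0 genes past the limma threshold in either direction. Of 12 ubiquitin partners of the IRAKs and TRAF6, 1 was under an unadjusted p of 0.05, the ligase Peli1, which acts on IRAK1 (0.34 ± 0.13, adjusted p = 0.236). Of 12 genes of the TRAF3 and TBK1 arm 1 was under it, the nucleic acid sensor Zbp1 (0.36 ± 0.12, adjusted p = 0.179). Of 11 genes of the arm from TRAF2 to alternative NF-kB 2 were, namely Tradd, the adaptor that joins TRAF2 to TNF receptor 1 (-0.54 ± 0.14, adjusted p = 0.102, and 0.0461 without dim features), and the kinase Mapk8, or JNK1 (0.46 ± 0.20, adjusted p = 0.299, and a change of 0.31 when Tet2-deficient replicate 1 was left out or 0.28 when wild-type replicate 2 was). Of 20 TNF receptor family genes 3 were, namely Cd27 (-0.40 ± 0.13, adjusted p = 0.179), Tnfrsf11a (-0.32 ± 0.13, adjusted p = 0.282) and Tnfrsf1b, TNF receptor 2 (0.27 ± 0.11, adjusted p = 0.265). Cd27 was dim, reading 1.97 to 2.56 over the 6 arrays, below every array median. Of 18 deubiquitinases and other brakes 2 were, Tnfaip3, or A20, which removes the chains that TRAF6 builds (0.50 ± 0.12, adjusted p = 0.0843), and Usp18 (-0.41 ± 0.18, adjusted p = 0.310, and a change of -0.23 without Tet2-deficient replicate 2). The medians of these 5 lists lay between 0.00 and 0.09.

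**Figure D4:**
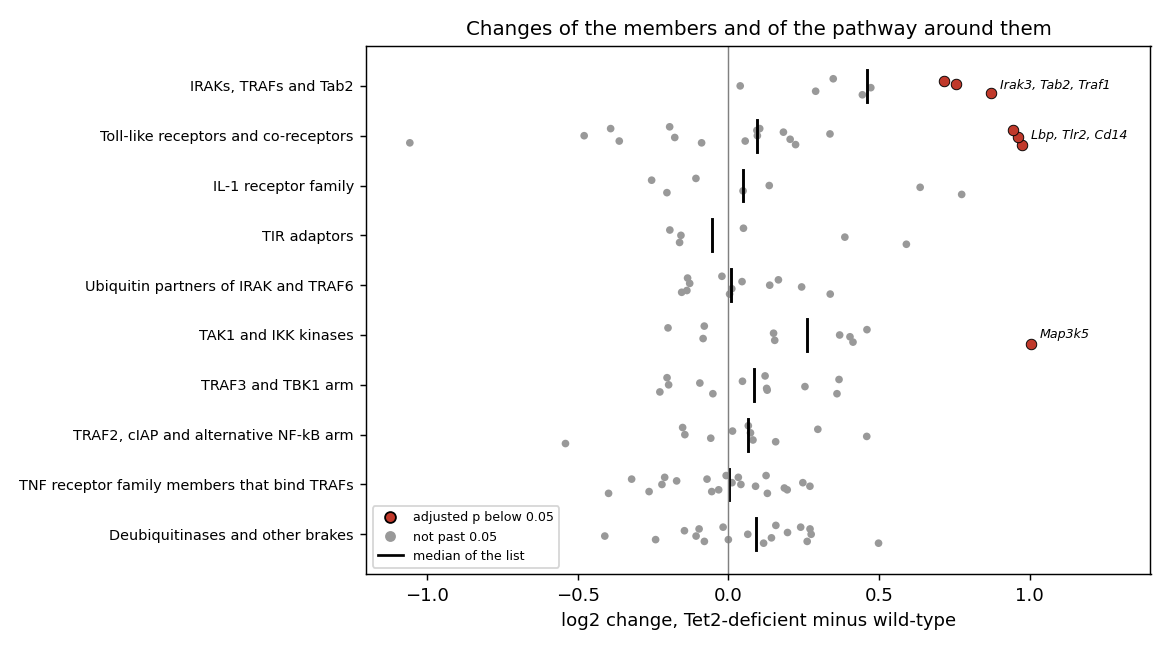
Log2 change (horizontal axis: Tet2-deficient minus wild-type) of each measured gene of the relay and of 9 lists around it (rows; 1 point per gene, bar at the median of the list, red points with an adjusted p below 0.05 and named). The top row, with a median of 0.46, lies to the right of the medians of the 9 lists, which run from -0.05 to 0.26.

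Markers of cell types were read in the same arrays, since Traf1 and Traf5 are also made by lymphocytes and Irak3 by monocytes. The 7 measured macrophage markers averaged 10.01 to 10.15 in Tet2-deficient and 9.76 to 9.82 in wild-type arrays (log2), and 2 of them, Itgam and Cd14, which is also among the co-receptors above, rose. Of the 7, 5 had a positive and 2 a negative change, those of Fcgr1, a receptor for immunoglobulin G (-0.51 ± 0.19, limma adjusted p = 0.230), and Mertk (-0.10 ± 0.12). Markers of large resident peritoneal macrophages were higher in part. Of these, 10 of 10 had a positive change, against 42.1% of all features. Prg4, F5, Timd4 and Cd5l, 4 in all, rose, where 0.647% of all features did. Icam2 had a change of 0.99 ± 0.19 that did not pass (limma adjusted p = 0.0523), nor did that of Lyve1 (0.18 ± 0.11). For 6 of the 10, Icam2 and Lyve1 among them, every Tet2-deficient array was above every wild-type array. That was so for 9.74% of all features and 16.6% of the brighter ones. Garnl3, Selp and Rarb had small changes (0.13, 0.07 and 0.06) with overlapping groups. The mean log2 level of the 10 was 5.76 to 6.10 in Tet2-deficient and 5.07 to 5.33 in wild-type arrays. Their summed linear level was 1541 to 2397 in Tet2-deficient and 678.5 to 904.3 in wild-type arrays. Without 1 array, Prg4 and F5 passed in 4 of 6 fits, Cd5l in 2, and Timd4 and Itgam in 1 each (adjusted p up to 0.108). Gata6, the factor that defines these cells, had 3.59, 4.42 and 3.63 in Tet2-deficient and 3.66, 3.51 and 3.79 in wild-type arrays. Its groups overlapped (change 0.23 ± 0.21, limma adjusted p = 0.657). The part of these resident macrophages in the changes of Traf1, Tab2 and Irak3 was not tested.

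Lymphocyte markers were low in both groups. The mean log2 level of 9 B cell markers was 3.21 to 3.59 in Tet2-deficient and 3.34 to 3.49 in wild-type arrays, and that of 11 T and NK cell markers 2.94 to 3.12 in Tet2-deficient and 3.07 to 3.21 in wild-type arrays. In these lists 5 of 9 and 8 of 11 genes were below the array median on all 6 arrays, and 0 passed the limma threshold (0 and 1 under an unadjusted p of 0.05). The 6 measured monocyte markers had a summed linear level of 380.6 to 612.3 in Tet2-deficient and 338.7 to 454.3 in wild-type arrays, overlapping. Of these markers 4 had a positive and 2 a negative change, with 0 past the limma threshold and 1, Ly6c2, under an unadjusted p of 0.05. Ly6c2 had 8.21, 7.40 and 7.74 in Tet2-deficient and 7.01, 6.59 and 6.73 in wild-type arrays, without overlap. Its change of 1.01 ± 0.20 (limma adjusted p = 0.0558) passed the threshold under 6 of 12 alternatives. Neutrophil markers averaged 3.64 to 3.75 in Tet2-deficient and 3.62 to 3.69 in wild-type arrays, and 8 of 10 were below the array median on all 6 arrays. Their summed linear level was 552.5 to 753.4 in Tet2-deficient and 434.9 to 540.2 in wild-type arrays, not overlapping, with 0 past the limma threshold and 0 under an unadjusted p of 0.05. The brighter pair, S100a8 (change 0.53 ± 0.28, adjusted p = 0.397) and Csf3r (0.29 ± 0.13, adjusted p = 0.337), had overlapping groups. Dendritic cell markers averaged 3.29 to 3.54 in Tet2-deficient and 3.33 to 3.47 in wild-type arrays, and those of mast cells and eosinophils 2.34 to 2.42 in Tet2-deficient and 2.37 to 2.51 in wild-type arrays. Markers of mesothelium and fibroblasts averaged 3.90 to 4.80 in Tet2-deficient and 3.80 to 4.23 in wild-type arrays, and 0 of 10 passed the limma threshold (1 under an unadjusted p of 0.05). That gene, Dcn, which encodes the matrix protein decorin, had 6.18, 6.88 and 5.57 in Tet2-deficient and 5.02, 5.12 and 4.71 in wild-type arrays. Its groups did not overlap (change 1.26 ± 0.28, limma adjusted p = 0.0715), and it passed under 4 of 12 alternatives. The part of these other cell types in the changes of the relay genes was not tested.

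For each gene that rose, the 3 named genes with the most similar pattern were taken by the Euclidean distance between deviations from the own mean over the 6 arrays, among 19703 candidates. Nearest to Irak3 were C5ar1, the receptor for complement C5a (distance 0.128), Il17ra, a receptor chain for interleukin 17 (0.128), and the peptidase gene Prep (0.139). Nearest to Tab2 were Nf1, which encodes the RAS inhibitor neurofibromin (0.121), the Notch ligand Jag1 (0.165) and the deubiquitinase gene Otud4 (0.17). Nearest to Traf1 were Mtmr12, a member of the myotubularin family (0.207), the G protein-coupled receptor gene Gpr35 (0.212) and the matrix protein gene Tgfbi (0.234). C5ar1 had 6.73, 6.68 and 6.80 in Tet2-deficient and 6.17, 6.06 and 5.90 in wild-type arrays, with wild-type replicate 3 the lowest, as for Irak3. The pattern of Nf1 had replicate 3 on top in the Tet2-deficient group (7.30, 7.24 and 7.57) and replicate 2 at the bottom in both groups (6.80, 6.47 and 6.75 in wild-type arrays), the order of Tab2. These distances over 6 arrays are a description.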

How the data were processed

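Gene expression was measured with 1 Affymetrix array per culture. The deposited values are log2 expression made by the authors with RMA in affy 1.36.1, per the submitters' processing notes; the array type is not given in the sources used here, nor is the genome build. They run from 0.35 to 12.7. Because RMA gives arrays nearly the same distribution, a shift shared by all genes would be hidden, and folds of dim genes are understated. Precision is limited by the number of arrays. Of 25206 features, 23185 had a gene symbol in the platform annotation, and no gene had more than 1 feature; the rest were tested too, without names.

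The 2 groups follow the sample titles, which name biological replicates (3 mice a group by the series design), so p-values reflect variation among mice and cultures. The difference was fitted with limma 3.58.1 (lmFit, eBayes; R 4.3.3) on all features, two-sided, at a threshold of 0.05, and the fit was tested on simulated data. Alternatives were median centring, cyclic loess, leaving out dim features, a replicate block, a trended and robust prior, array weights and leaving out each array. Those for genes other than the relay genes were added after seeing the data. The genes, lists and tests were chosen with earlier results of these data known. By rule, the text names all relay genes and Tet2, each called pathway gene with others of smallest p up to 4 per list, up to 2 markers per cell type with the largest change, and the 3 nearest patterns of each relay gene that rose. Tlr4, Myd88, the further markers, Gata6 among them, and the neighbours of the relay genes were named after their values were seen. Promoter sequences are those of RefSeq, build GRCm38.p6, matched by symbol for all 8 genes. Same-numbered arrays of the groups had correlations of 0.084, 0.191 and 0.025 between their deviations from the group means. Arrays of unlike number had -0.137 to 0.064. These values do not settle whether the numbers pair the arrays, and the main fit took no pairing.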

Additional observations from a re-analysis of the deposited data

How the results depend on the processing

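The counts of calls and the changes of the relay genes, Tet2, the named pathway genes and some markers were computed again under 12 alternatives (11 for dim genes); marker levels, list medians, separations, neighbours and nearest patterns were not. Leaving out dim features gave 846 features past the threshold, array weights 498 and a trended, robust prior 814, against 240 as deposited, and the fits with 1 array left out gave 11 to 155. For the 8 relay genes, 3 passed as deposited, 1 (Tab2, adjusted p = 0.0443) with the replicate number as a block, and 0 to 1 with 1 array left out, where 5 or 6 had an unadjusted limma p under 0.05. With that block Traf1 had an adjusted p = 0.0576 and Irak3 one of 0.0594, at unchanged log2 changes, and 230 features passed. Whether the numbers pair the samples is not settled. Tet2-deficient replicates 1 and 2 correlated best with the wild-type array of their own number (0.084 and 0.191). Tet2-deficient replicate 3 correlated best with wild-type replicate 1 (0.064). Of the 114 pathway genes 4 passed as deposited, 8 without dim features (6 higher, 2 lower), 8 with the trended, robust prior (7 higher, 1 lower) and 0 to 3 with 1 array left out, where 18 to 24 had an unadjusted limma p under 0.05. The change of Traf2 was -0.023 with cyclic loess and -0.0061 to 0.088 with 1 array left out, below 0 without wild-type replicate 2; the cause was not tested. The other 7 relay genes kept a positive change under every alternative run. The median change of all features was -0.04 as deposited, 0.03 with each array centred and -0.0029 with cyclic loess.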

Other observations

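The genes next to the relay genes on their chromosomes, by the RefSeq gene table, were read after the results above were known. Of 16 nearest protein-coding neighbours, 14 were measured under their symbols, with changes from -0.27 to 0.59. Of these, 0 passed the limma threshold, where 0.647% of all features rose and 0.305% fell. An unadjusted limma p under 0.05 was found for 4, all higher (Hcfc1, Tmbim4, Fbxw5 and Ust), where 7.63% of all features were higher. With dim features left out, 3204 of 12603 features had such a p in either direction. Phf19 and Hc, the neighbours of Traf1, had changes of -0.17 ± 0.13 and -0.03 ± 0.12. Helb and Tmbim4, beside Irak3, had 0.24 ± 0.12 and 0.32 ± 0.12, and Zc3h12d and Ust, beside Tab2, had -0.27 ± 0.14 and 0.31 ± 0.12. The highest value was that of Hcfc1, beside Irak1 on the X chromosome (0.59 ± 0.13, limma adjusted p = 0.0715), with groups that did not overlap. Fbxw5, beside Traf2, had 0.51 ± 0.16 (limma adjusted p = 0.168), although Traf2 itself had 0.04.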
